A study of Rattus norvegicus with 20 samples.

Results

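A diet cut by 5% for 1 week was compared with the full diet in rat liver, using 4 of the 20 arrays of the series. The 5% side was the 2 arrays titled 1w-5 and the control side the 2 arrays titled 1w-C, chosen by their titles and not by any measured value. All animals were male Wistar rats, an outbred laboratory strain. They were labelled 6 weeks of age for the 1 week groups, which is the age at which the diets began, and 9 weeks for the 1 month groups, with no word on when in the study the latter age was taken. Control rats received no reduction, and the other groups had 5, 10, 20 or 30% restriction for 1 week or 1 month. Livers were removed after a fast of 16 h in every group, so the control is itself a fasted liver. Each group's RNA is 1 pool from 5 rats, and it was run on 2 Affymetrix GeneChips, arrays on which a set of short probes reports a transcript as a signal. The 2 arrays of a pool are repeats of 1 RNA, so their spread is array error and holds nothing of the spread between rats, and each diet at each duration has 1 pool. Pools of 10, 20 and 30% restriction at 1 week, and of control and 5% at 1 month, are used here where they show how the 5% pool at 1 week differs.

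A fasted liver turns from making lipid to burning it. Sterol regulatory element-binding proteins drive the genes of fatty acid and cholesterol synthesis, Insig proteins hold those factors back, and peroxisome proliferator-activated receptor alpha drives fatty acid oxidation. The liver also runs a circadian clock, in which Bmal1 and Clock bind E-box sequences and turn on Per, Cry, Nr1d1 and Dbp, and the Nr1d1 protein in turn represses Bmal1. Feeding time is a strong time cue for this clock in the liver.

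Of 15866 probe sets that are no controls, the 60% with the highest mean log2 signal, 9520 probe sets for 7055 named genes, were compared after quantile normalization. The trimmed mean signal before normalization was 61.9 and 49.1 units on the control arrays and 41.7 and 53 units on the 5% arrays. The 2 control arrays correlated at 0.954 and the 2 arrays of the 5% pool at 0.950 over these probe sets, and arrays of the 2 pools correlated at 0.933 to 0.947. Hepatocyte markers were present, with 9 of 9 above the lowest mean signal tested (11.7 units) in both pools. Their summed signal was 41278 and 41170 units on the control arrays and 42207 and 41320 on the 5% arrays.

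Few probe sets stood apart after a week at 5%, and those that passed the test include genes of the clock, of sterol and steroid metabolism and of drug handling. In a limma fit over the 10 pools, 14 of 9520 probe sets (0.147%) differed between 5% and control at an adjusted p under 0.05, of which 11 (0.116%) rose and 3 (0.0315%) fell. By unadjusted p under 0.05 there were 932, where 476 would be expected if nothing differed. The genes that rose were Hsd17b2, Dbp, Per2, Nr1d1, Inmt, Aldh1a1, Ech1, Nceh1, Abcg5 and Akr1d1, plus 1 probe set that matches several genes, and those that fell were Insig1, Sgk1 and Cdkn1a. The probe set of several genes gave 180.8 and 234.2 units in control and 1189.4 and 1117.1 at 5% (log2 difference 2.49, limma adjusted p = 0.00328). It has no single gene name, so it counts in no gene list below. On the signals as deposited 25 rose and 56 fell, and with median centring of each array 9 rose and 12 fell. A second reading used size alone, a log2 difference of 1 or more and no overlap between the arrays of the 2 pools. It took in 361 probe sets (3.79%), 176 (1.85%) higher at 5% and 185 (1.94%) lower, including 13 of the 14 from limma, Akr1d1 being the one left out. On simulated data the size rule took in 3.49% of unchanged probe sets, close to the 3.79% here. The size count alone therefore does not show a difference between the diets. As each condition has 1 pool, the limma fit takes its spread from how the 10, 20 and 30% pools scatter around their lines and assumes that the 5% and control pools vary alike. Its count was 3 without the 20% pool at 1 week, 28 with the arrays numbered 2 alone, 93 without control array 1, 48 without 5% array 1 and 53 without 5% array 2.

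Most of the differences by size lay among dim probe sets, where arrays of the same pool also differ most. Of the dimmest 2380 probe sets, with mean signals of 11.7 to 23.4 units, 132 were higher and 123 lower by the size rule, 10.7% of them. Of the brightest 2380, from 109 units up, 13 were higher and 10 lower, 0.966% of them. The arrays of 1 pool differed with a median SD of 0.50 (log2) in the first set and 0.11 in the second. Among the 4760 brighter probe sets, those with a mean of 45.1 units or more, 45 (0.945%) were past the size rule, 25 (0.525%) higher and 20 (0.42%) lower, against 6.64% of the 4760 dimmer ones. The 2 arrays of 1 pool themselves differed 2-fold or more at 5.84% of probe sets for control and 6.74% for 5%.

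**Figure D1:**
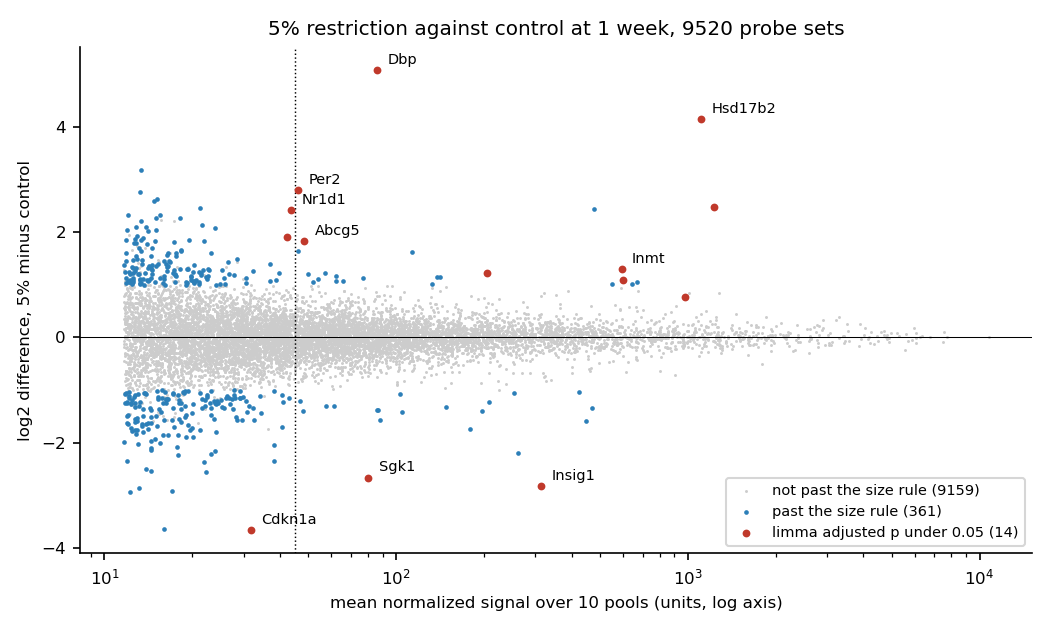
Log2 difference of the pool means, 5% minus control at 1 week, against the mean normalized signal over 10 pools (log axis) for 9520 probe sets; blue points are past the size rule, red points passed limma, and the dotted line marks the middle of the signal range by rank. The scatter narrows from left to right, and Dbp, Hsd17b2, Insig1 and Sgk1 lie outside it at signals where few other points exceed a difference of 1.

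Clock genes differed in both directions: the output factor Dbp and the repressors Per2 and Nr1d1 rose, while Bmal1 was lower by size. Dbp, a transcription factor of the clock's output, gave 4.7 and 3.7 units on the control arrays and 147 and 136 on the 5% arrays. Both control values lie under the lowest mean signal tested, so with them raised to 11.7 the signal was at least 12.1-fold higher at 5% (log2 difference 5.08 ± 0.29, array SE, 2 arrays a pool, limma adjusted p = 0.033). The array SE here and below comes from the spread between the arrays of a pool over all 10 pools. Per2, a repressor within the clock, gave 16.1 and 2.1 units in control and 37.5 and 43.3 at 5%, at least 2.94-fold higher with the 1 low array raised to 11.7 (limma adjusted p = 0.00592). With low array values raised before the fit, neither Dbp nor Per2 passed (limma adjusted p = 0.0767 for both). Over 21 alternatives the adjusted p ran from 4.46e-43 to 0.186 for Dbp and from 1.03e-10 to 0.367 for Per2, and without control array 2 Per2 gave 1.32 on the log2 scale and did not pass. Nr1d1, the nuclear receptor that represses Bmal1, gave 25.1 and 22.1 units against 112.5 and 139.6, a log2 difference of 2.41 ± 0.20 (5.33-fold, limma adjusted p = 0.0308). Its relative Nr1d2 gave 40.5 and 44.8 units against 124.2 and 139.4, a log2 difference of 1.63 ± 0.12, and did not pass (limma adjusted p = 0.0638). In each of these genes both 5% arrays lay above both control arrays, as the size rule requires. Bmal1 ran the other way, at 47.7 and 46.7 units in control and 12.9 and 15.2 at 5%, a log2 difference of -1.75 ± 0.92 that did not pass (limma adjusted p = 0.495).

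Of 15 measured genes of the clock and its outputs, 6 were higher and 2 lower by the size rule, against 3.53% of all 7055 genes (1.72% higher and 1.81% lower), and 3 rose by limma. The list's median log2 difference was 0.39, where that of all genes was 0.01. The other members past the size rule were Cry2, a repressor of the clock, at 1.22 (0.05 on its second, dimmer probe set), Usp2, a deubiquitinase with a daily rhythm, at 1.15, and Nfil3, a repressor that competes with Dbp for D-box sequences, at -1.23. Among the rest, Hlf gave 0.52, Clock -0.37 and Per1 -0.76, the last with 5% arrays at 5.8 and 31.3 units on either side of both control arrays. The labels give the length of the fast but no clock time at which livers were taken.

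The start regions of the clock repressors Per2 and Nr1d1 and of 2 other genes that the results turn on are shown from RefSeq, build GRCr8. They were picked because they hold sequences that the clock and the metal sensor Mtf1 are known to bind. Each runs from 250 bases before to 50 after the gene's start, 5' to 3' on the gene's strand, with matches in capitals to the E-box (CACGTG), the D-box (TTANGTAA) or the metal response element (TGCGCNC), searched on both strands. The matches shown do not overlap each other. Nr1d1 has 2 start regions in RefSeq, and the one with an E-box is given.
Per2, chr9:99496944-99497243, minus strand: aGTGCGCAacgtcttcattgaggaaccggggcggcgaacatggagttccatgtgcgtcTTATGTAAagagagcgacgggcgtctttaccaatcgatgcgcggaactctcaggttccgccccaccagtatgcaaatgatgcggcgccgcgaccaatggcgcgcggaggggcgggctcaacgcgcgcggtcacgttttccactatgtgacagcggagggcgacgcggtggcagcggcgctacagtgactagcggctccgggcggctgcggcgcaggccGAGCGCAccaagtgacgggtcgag
Nr1d1, chr10:84229405-84229704, minus strand: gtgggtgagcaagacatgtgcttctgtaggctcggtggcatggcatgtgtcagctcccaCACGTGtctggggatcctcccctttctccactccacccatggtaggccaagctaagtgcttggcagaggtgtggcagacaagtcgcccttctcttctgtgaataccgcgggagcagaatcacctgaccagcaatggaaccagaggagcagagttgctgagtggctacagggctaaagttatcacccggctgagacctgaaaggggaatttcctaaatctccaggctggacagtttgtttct
Insig1, chr4:8057720-8058019, minus strand: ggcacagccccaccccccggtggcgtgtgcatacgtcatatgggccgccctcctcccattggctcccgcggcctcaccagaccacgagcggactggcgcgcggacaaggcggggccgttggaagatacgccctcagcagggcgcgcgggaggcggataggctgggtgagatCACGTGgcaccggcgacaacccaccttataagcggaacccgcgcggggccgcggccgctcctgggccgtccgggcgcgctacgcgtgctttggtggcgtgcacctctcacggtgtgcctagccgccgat
Mt2A, chr19:10838659-10838958, minus strand: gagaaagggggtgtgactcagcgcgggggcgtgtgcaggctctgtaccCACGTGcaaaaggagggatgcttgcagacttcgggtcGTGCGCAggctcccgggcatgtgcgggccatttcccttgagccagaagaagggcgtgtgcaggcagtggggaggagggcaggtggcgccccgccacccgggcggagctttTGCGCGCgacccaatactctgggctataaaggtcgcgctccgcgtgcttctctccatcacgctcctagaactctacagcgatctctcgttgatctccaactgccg
Per2 holds a D-box starting at position -192 and metal response elements at -249 and 27, counted from the gene's start. The E-box starts at -191 in Nr1d1, -79 in Insig1 and -202 in Mt2A, and the metal response elements of Mt2A start at -165 and -55. Of the 13 named genes that passed limma, 10 had a start region in the table, and 3 of those (Nr1d1, Insig1 and Nceh1) held an E-box, which 6.42% of 33469 rat start regions hold. A D-box stood in 1 of the 10 (2.24% of all regions) and a metal response element in 2 (14.1% of all). A gene counted if any of its start regions held a match, while the shares are of single regions, so the units differ. No match to any of these sequences was found in the start regions of Dbp, Nr1d2, Bmal1, Pnpla3, Sgk1, Cdkn1a, Abcg5, Inmt or Aldh1a1. A match is a stretch of letters and was not measured as a bound site.

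Most genes of lipid and cholesterol synthesis had lower signals after the week at 5%, and Insig1 was the 1 member of either list that passed limma. Insig1, which retains the sterol sensor in the endoplasmic reticulum, gave 1291.6 and 1260.7 units on the control arrays and 175.5 and 185.2 on the 5% arrays. The log2 difference was -2.82 ± 0.17 (7.08-fold lower, limma adjusted p = 0.00412), and the groups did not overlap, as the size rule requires. Insig2, its relative, gave 690.5 and 657.3 against 395.2 and 407.6 units, a log2 difference of -0.75 ± 0.06 that did not pass either rule. Of 19 measured genes of cholesterol synthesis, 0 were higher and 3 lower by the size rule, and 18 had a difference below 0, with a median of -0.38. Over all genes 1.72% were higher and 1.81% lower, and 3422 of 7055 were below 0. Beside Insig1 these were Dhcr7, the last reductase of the pathway, at -1.07 ± 0.14 and Mvd, a decarboxylase of the mevalonate branch, at -1.06 ± 0.73.

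Pnpla3, a lipid droplet protein, had the largest difference among 25 measured genes that build fatty acids and triglycerides. It gave 453.8 and 426.3 units in control and 54.2 and 63.0 at 5%, a log2 difference of -2.91 ± 1.21 (7.53-fold lower, limma adjusted p = 0.321). Lpin1, a phosphatidate phosphatase on the way to triglyceride, gave 375.3 and 457.6 units against 91.2 and 88.9, a log2 difference of -2.20 ± 0.15 (limma adjusted p = 0.328). Fasn, the fatty acid synthase, gave 1153.3 and 1236.8 units against 484.2 and 531.0, a log2 difference of -1.24 ± 0.15 (limma adjusted p = 0.574). In all 3 genes both 5% arrays were below both control arrays, as the size rule requires. Acly, which supplies acetyl-CoA, was at -1.04, Acsl3, which activates fatty acids, at -1.17 and the elongase Elovl6 at -1.15. In all, 6 of the 25 were lower and 0 higher by the size rule, 0 passed limma, and 20 had a difference below 0, with a median of -0.29, beside 1.81% lower and 3422 of 7055 below 0 over all genes. Srebf1, which encodes the lipogenic regulator, stood at -0.73 ± 0.17, Scd, the stearoyl-CoA desaturase, at -0.26 ± 0.08 and Thrsp, a lipogenic protein, at 0.02 ± 0.07, none past either rule. The 2 probe sets of Me1, the malic enzyme that makes NADPH, disagreed, at -0.20 for the brighter and -1.38 for the other.

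In bile acid synthesis and sterol export, Abcg5 and Akr1d1 rose and most other members lay above control. Abcg5, a subunit of the transporter that exports sterols into bile, gave 13.1 and 9.9 units in control and 43.5 and 37.9 at 5%, at least 3.29-fold higher with the 1 low array raised to 11.7 (limma adjusted p = 0.0343). Akr1d1, the 5-beta-reductase of bile acid and steroid hormone metabolism, gave 559.4 and 387.3 units against 849.4 and 737.6, a log2 difference of 0.77 ± 0.15 (1.70-fold, limma adjusted p = 0.0342). Both 5% arrays of each gene were above both control arrays, which the size rule requires of Abcg5. Over 21 alternatives Abcg5 passed limma in 13 and Akr1d1 in 10. Abcg8, another member of the list, gave 9.6 and 9.8 units against 8.7 and 20.4, with 3 arrays under the limit, and passed neither rule. Nceh1, a cholesteryl ester hydrolase, rose from 26.6 and 7.0 units to 46.3 and 57.2, at least 2.92-fold with the 1 low array raised (limma adjusted p = 0.0342). Its 2 control arrays lay far apart, and without control array 2 the log2 difference was 0.95 and did not pass. Of 22 measured genes of the bile acid and sterol transport list, 1 was higher and 0 lower by the size rule, and 2 rose by limma. Over all genes 1.72% were higher and 1.81% lower by the size rule. In the list 17 had a difference above 0, with a median of 0.30, where 3621 of 7055 genes were above 0. Cyp7a1, which catalyses the first step from cholesterol to bile acids, gave 41.0 and 34.9 units against 86.7 and 61.3, a log2 difference of 0.95 ± 0.15 that did not pass (limma adjusted p = 0.520). On the signals as deposited, where all probe sets shift by a median of -0.17, this list's median was 0.04.

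Fatty acid oxidation changed in 1 measured gene of 31 by limma. Ech1, which moves double bonds of unsaturated fatty acids for oxidation, gave 211.7 and 209.3 units in control and 451.9 and 440.4 at 5%, a log2 difference of 1.08 ± 0.08 (2.12-fold, limma adjusted p = 0.0342). Eci1, another isomerase of the same path, was at 0.88 ± 0.11 (limma adjusted p = 0.0638), Cpt1a, which admits fatty acids to mitochondria, at 0.85 ± 0.07 (limma adjusted p = 0.0903) and Cyp4a3, an omega-hydroxylase, at 0.84 ± 0.04 (limma adjusted p = 0.0909). Eci1 and Cyp4a3 were named after their values were seen. Of the 31, 26 had a difference above 0, but the median was 0.14, and on the signals as deposited it turned to -0.10 against -0.17 for all probe sets. Ppara itself was lower by size on values of 16.2, 9.9, 4.1 and 5.1 units, of which 3 lie under the lowest mean signal tested.

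**Figure D2:**
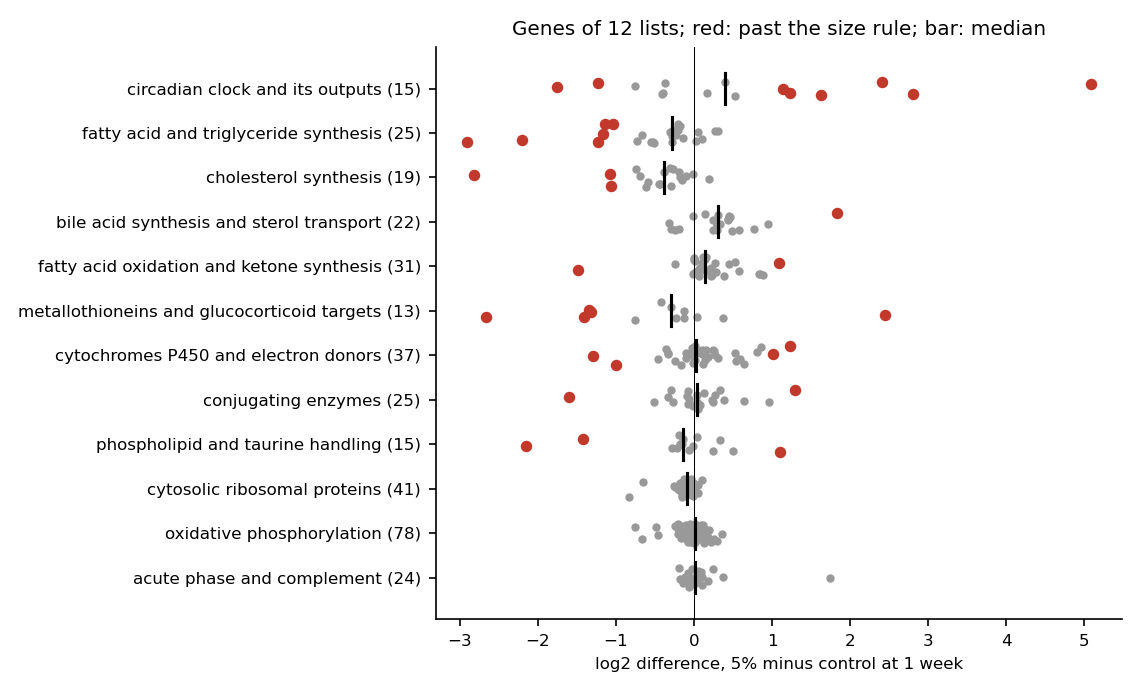
Log2 difference of the pool means, 5% minus control at 1 week, for each measured gene of 12 lists (number of genes in brackets); red points are past the size rule, grey points are not, and the black bar is the list's median. Clock genes spread to both sides, the lipid and cholesterol synthesis lists lie mostly to the left of 0, and the ribosomal protein and oxidative phosphorylation lists stay close to 0 with no red point.

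The largest rise among genes with all 4 arrays above the lower limit was in Hsd17b2, a dehydrogenase that inactivates oestradiol and testosterone. It gave 114 and 115.9 units on the control arrays and 1999.8 and 2070.3 on the 5% arrays, a log2 difference of 4.15 ± 0.09 (17.7-fold, limma adjusted p = 0.00328). The pools of 10, 20 and 30% restriction gave 2560, 2595 and 2235 units at 1 week, so the 5% pool was already near their level. It was the only one of 12 measured genes of steroid metabolism past the size rule, beside 3.53% of all genes. Its call failed under 1 of 21 alternatives, the fit without a variance trend (limma adjusted p = 0.14, with 2.76e-36 to 0.14 over all of them), as did that of Insig1.

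Inmt and Aldh1a1, enzymes that act on small molecules, rose with little spread between arrays. Inmt, a methyltransferase of indoleamines and other amines, gave 149.1 and 138.4 units in control and 369.2 and 334.8 at 5%, a log2 difference of 1.29 ± 0.08 (2.45-fold, limma adjusted p = 0.00592). Aldh1a1, a retinaldehyde dehydrogenase, gave 90.1 and 86.0 against 212.3 and 199.5 units, a log2 difference of 1.23 ± 0.09 (2.34-fold, limma adjusted p = 0.0144). In both genes the 2 pools did not overlap, as the size rule requires. Por, which passes electrons to the microsomal cytochromes P450, gave 133.4 and 160.5 against 297.4 and 295.2 units, a log2 difference of 1.02 ± 0.20 (limma adjusted p = 0.413). Cyp2c12, the cytochrome P450 known as female-predominant in rats, gave 354.3 and 335.1 against 136.1 and 144.3 units, a log2 difference of -1.30 ± 0.24 (limma adjusted p = 0.395). Of 37 measured cytochromes P450 and their partners, 2 were higher and 2 lower by the size rule, with a median of 0.03, beside 3.53% of all genes past the rule. Of 25 conjugating enzymes 1 was higher and 1 lower, the latter Nat2 on signals at the lower limit.

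Metallothionein and glucocorticoid-responsive genes split. Mt2A, a metal-binding protein, gave 78.9 and 60.9 units in control and 379.8 and 376.6 at 5%, a log2 difference of 2.45 ± 0.16 (5.46-fold) that missed the threshold (limma adjusted p = 0.0878). Mt1 was at -0.30 on the probe set that stands for it. The list holds only probe sets with 1 gene name, so the probe set of several genes that passed limma is not part of it. Sgk1, a kinase induced by glucocorticoids and insulin, fell from 215.2 and 227.5 to 36.1 and 33.5 units, a log2 difference of -2.67 ± 0.11 (6.36-fold lower, limma adjusted p = 0.0121). Cebpb, a transcription factor of acute phase and gluconeogenic genes, gave 239.3 and 252.3 against 81.9 and 104.5 units, a log2 difference of -1.41 ± 0.19 (limma adjusted p = 0.0994). Tat, the tyrosine aminotransferase, gave 304.8 and 411.6 against 161.3 and 120.1 units (-1.35 ± 0.19), and Tsc22d3, a glucocorticoid-induced repressor, gave 175.6 and 170.1 against 71.1 and 67.7 units (-1.32 ± 0.16). The 2 pools did not overlap in Mt2A, Sgk1, Cebpb, Tat or Tsc22d3, as the size rule requires, and they did in Mt1. Of 13 measured genes of the list, 1 was higher and 4 lower by the size rule, beside 1.72% higher and 1.81% lower over all genes. All 5 were among the brighter probe sets, of which 0.945% were past the rule. The median was -0.30, beside 0.01 over all genes, with Fkbp5 at -0.23, Dusp1 at -0.42 and Klf9 at 0.37. These 3 genes, Mt1 and Tsc22d3 were named after their values were seen.

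Cdkn1a, which encodes the cell cycle inhibitor p21, fell from 115.9 and 165.2 units in control to 6.5 and 18.2 at 5%, at least 9.49-fold lower with the 1 low array raised to 11.7 (limma adjusted p = 0.0111). Its second probe set gave 57.1 and 80.7 against 2.9 and 10.1 units and did not pass (limma adjusted p = 0.199). The other members of the cell cycle and p53 list past the size rule, Myc and Mdm2, were lower on signals near the limit. Of the list's 18 measured genes 0 were higher, beside 1.72% higher and 1.81% lower over all genes. Irf2bp2, a transcriptional corepressor, gave 247.9 and 309 against 89.7 and 76.9 units, a log2 difference of -1.74 ± 0.20 (limma adjusted p = 0.0994). Egr1, an immediate early transcription factor, gave 52.5 and 52.4 against 24.8 and 12.4 units (-1.58 ± 0.38). Slc6a6, the taurine transporter, gave 198.4 and 194.3 against 41.0 and 47.5 units (-2.15 ± 0.34), and Chka, the choline kinase, 78.8 and 77.1 against 28.1 and 30.3 (-1.42 ± 0.35). Tubb2a, a tubulin, gave 633.6 and 553 against 213.5 and 187.7 units (-1.56 ± 0.24). These 5 genes were lower by size and did not pass limma for 5% against control at 1 week.

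The other large differences by size came mostly from dim probe sets. Cend1, Tnrc18, Ankrd40, Bysl, Slc66a1 and Mroh7 were higher by 0.89 to 1.74 on the log2 scale with low array values raised to the limit, each with a control array at 11.7 units or less. Ankrd40 is among the brighter probe sets, but its arrays lay far apart within each pool, at 11.7 and 32.4 units in control and 41.8 and 89.7 at 5%. Irs2, an adaptor of the insulin receptor, gave 13.4 and 12.3 against 38.1 and 31.3 units (1.43 ± 0.81). Nfic, RT1-CE16 and Zfp414 were lower with both 5% arrays under 11.7 units, and Hdgfl2 was lower with 5% arrays that themselves read 33.3 and 5.6 units. Tcim gave 55.9 and 54.5 against 18.3 and 15.5 units, and Ppox, an enzyme of haem synthesis, 57.6 and 83.4 against 25.8 and 20.9. None of these 13 genes passed limma between 5% and control. RT1-CE16 did pass against the mean of the 10, 20 and 30% pools at 1 week, where 5% was lower (-2.01, limma adjusted p = 0.0372).

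**Figure D3:**
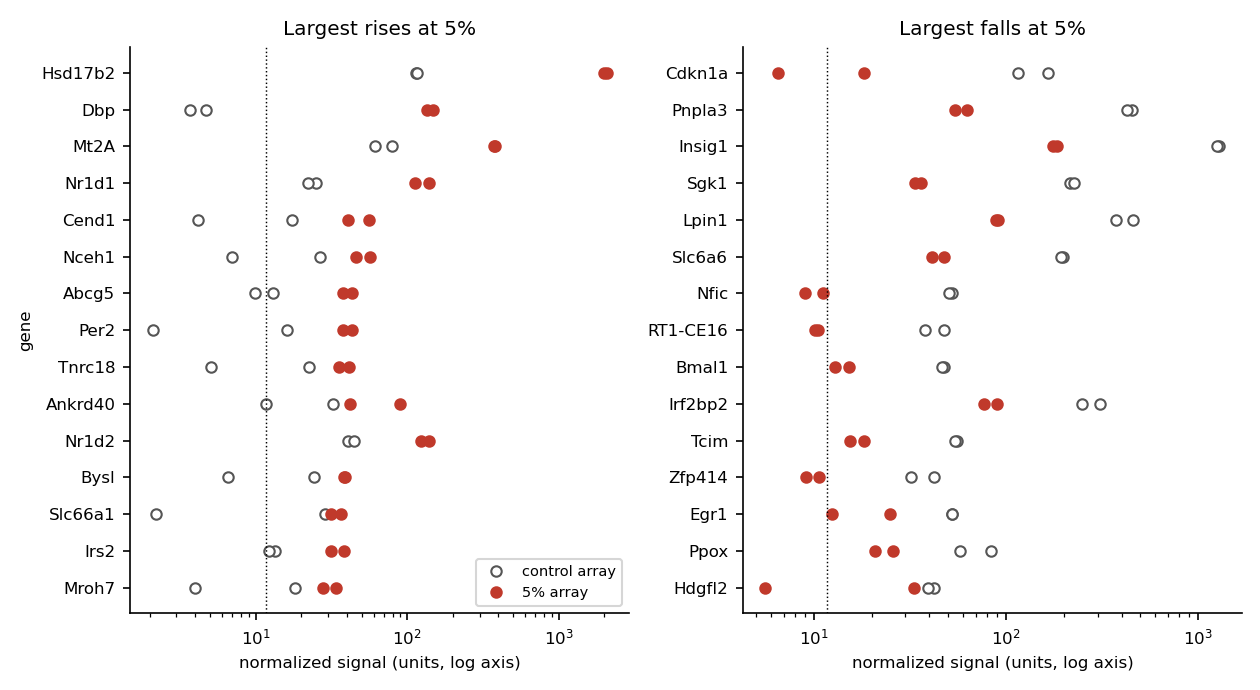
Normalized signal on each array (log axis) for the 15 largest rises and 15 largest falls past the size rule, with open circles for the 2 control arrays, red circles for the 2 arrays of the 5% pool and a dotted line at 11.7 units, the lowest mean signal tested. Hsd17b2, Mt2A and Insig1 show tight pairs far apart, whereas Cend1, Per2, Slc66a1 and Hdgfl2 have a pair whose own arrays lie far from each other.

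Several programs of fasting and growth did not stand apart at 5%. Pck1, the gluconeogenic carboxykinase, gave 2358.8 and 1917.9 units in control and 2344.1 and 1827.2 at 5% (-0.04 ± 0.12). Igf1, the growth factor made in liver, gave 2219.7 and 2644.5 against 2284.5 and 2219.7 units (-0.11 ± 0.16), and Hspa5, the chaperone BiP, was at -0.10 ± 0.09. Pdk4, which curbs glucose oxidation, was at -0.76 ± 0.16 and Igfbp1, an insulin-repressed binding protein, at -0.83 ± 0.16, neither past the size rule or limma. Endoplasmic reticulum chaperones (23 genes), heat shock proteins (17), glycolysis and glycogen (16), antioxidant genes (21), iron handling (16), acute phase and complement (24), proteasome subunits (27), apolipoproteins (16), cytosolic ribosomal proteins (41) and oxidative phosphorylation (78) had 0 members past the size rule and 0 past limma. Their medians ran from -0.09 to 0.09, the ribosomal proteins lowest with 35 of 41 below 0. A p that misses the threshold does not show that these genes were equal in the 2 pools.

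In 7 further lists, 1 to 3 members were past the size rule, and 0 passed limma against control at 1 week. Over all genes 3.53% were past the size rule, so counts this small are not read as a result about a list. Among 20 fasting and insulin-responsive regulators Irs2 was higher and Tat lower, with a median of -0.18. Among 21 genes of the growth hormone axis Prlr, the prolactin receptor, was higher at 18.8 and 12 units in control against 37.7 and 35.8 on one probe set and at 12.7 and 21.3 against 18.7 and 19.3 on another, and Cyp2c12 lower, with a median of -0.10. Tat was the 1 gene past the rule of 36 in amino acid breakdown and the urea cycle (median 0.02), and Cebpb the 1 of 18 in the amino acid stress response (median 0.08). Of 27 interferon and antigen presentation genes RT1-Ba, a class II antigen chain, was lower at 50 and 60.7 units against 17.0 and 35.9 (median 0.05). Tubb2a was the 1 of 10 cytoskeletal genes (median -0.35), and of 15 phospholipid and taurine genes Pla2g12a was higher on signals near the limit, with Slc6a6 and Chka lower (median -0.14).

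Sums of marker signals for other liver cells were set beside each other in both pools. The 8 Kupffer cell markers summed to 1110 and 1016 units in control and 963 and 1014 at 5%, the 13 of stellate cells to 751 and 851 against 856 and 903, and the 8 of endothelial cells to 415 and 387 against 456 and 456. Red cell markers summed to 2102 and 2181 against 1921 and 1864 units, and bile duct markers to 157 and 153 against 118 and 122. The 3 neutrophil markers summed to 37 and 36 against 18 and 19 units, a difference carried by S100a9, also under the filter, at 23.2 and 21.4 units in control and 5.3 and 2.8 at 5%. Among marker genes that passed the signal filter, the size rule took in the endothelial scavenger receptor Stab1, at 24 and 20.7 units in control and 9.7 and 7.5 at 5%. Of those under the filter, the bile duct keratin Krt7 read 19.9 and 26.1 units in control and 2.2 and 10.6 at 5%. Smooth muscle and adipocyte markers summed to 59 and 70 against 71 and 55 units, and pancreas markers to 203 and 254 against 238 and 211. Of 12 lymphocyte markers 7, including Cd3e and Cd3d, lay under the limit in both pools. In bulk tissue fewer cells of a type and less RNA per cell cannot be told apart. The part of these shifts in the gene results was not tested. The ratio of 3' to 5' signal of GAPDH, a sign of RNA quality, was 1.5 and 1.52 in control and 1.57 and 1.39 at 5%, and with it as a covariate 7 of the 14 limma calls passed.

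Set against the mean of the 10, 20 and 30% pools at 1 week, the 5% pool differed at 24 of 9520 probe sets (0.252%), 4 (0.042%) higher and 20 (0.21%) lower, with 1239 at an unadjusted p under 0.05. With median centring the split was 6 higher and 88 lower, and with no normalization 16 and 582. Inmt was lower at 5% than at the stronger restrictions, with pools at 854, 967 and 1145 units against 352 (-1.48 ± 0.10, fit SE, limma adjusted p = 0.00132), so it stood between control and the rest. Ech1 (-0.89, limma adjusted p = 0.0377) and Akr1d1 (-0.60, limma adjusted p = 0.0405) stood between in the same way. Nat8, an acetyltransferase, gave 37.6 and 28.0 units in control, 68.1 and 58.6 at 5%, and 183, 405 and 427 in the pools of 10, 20 and 30% (-2.32 ± 0.25, limma adjusted p = 0.0276). The alcohol dehydrogenase Adh1c and Cdv3 were also lower at 5% (-0.97 and -1.09), as were Sult2a6, a sulfotransferase, and Acsm5 (-1.46 and -1.35, both past limma), and these 2 were named after their values were seen. The count was 1 without the 20% pool at 1 week, 176 without the 10% pool and 10 without the 30% pool. It was 118 without 5% array 1 and 245 without 5% array 2.

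In a few genes the 5% pool lay nearer to control than to the stronger restrictions. Of the 4 probe sets higher at 5% than beyond, 2 have a gene name. A dimmer probe set of Efna1, a ligand of Eph receptors, gave 71.9 and 88.2 units in control, 93.5 and 79.5 at 5%, and 36.7, 41.3 and 50.3 in the pools of 10, 20 and 30% (1.02 ± 0.16 for 5% over their mean, limma adjusted p = 0.0478). The brightest probe set of Efna1, which stands for the gene, did not pass. The dimmer probe set of Elovl5, a fatty acid elongase, gave 547.2 and 532.1 units in control, 474 and 504 at 5%, and 322, 274 and 227 beyond (0.85 ± 0.12, limma adjusted p = 0.0388). Efna1 was named after its values were seen. The genes that follow did not pass. Hamp, the iron hormone hepcidin, gave 1170.6 and 1246.2 units in control and 1028 and 1093.4 at 5%, and 330, 366 and 81.9 units in the pools of 10, 20 and 30% (2.30 on the log2 scale for 5% over their mean, limma adjusted p = 0.134). Gckr, the glucokinase regulator, gave 383 and 458.6 against 410.6 and 446 units and was 1.33 higher than the stronger pools (limma adjusted p = 0.0602). Fasn at 5% was 2.41 above their mean (limma adjusted p = 0.0823), lower than control and higher than the rest.

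Another set of genes was lower at 5% and 10% than at 20 or 30%. Sgk1 gave 34.8 units at 5%, then 31.3, 64.1 and 81.7 at 10, 20 and 30%, against 221 in control. Lpin1 gave 90.0 units at 5%, then 83.1, 326 and 344, against 414 in control. Tat gave 139 units at 5%, then 218, 361 and 597, against 354 in control, so its 30% pool lay above control. Irf2bp2 (83.0, 84.4, 128 and 214 units from 5 to 30%) and Tsc22d3 (69.4, 102, 123 and 173) were lowest at 5% among the restricted pools. The difference of 5% from the mean of the stronger pools did not pass for any of these 5, with Tat nearest (limma adjusted p = 0.0643).

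**Figure D4:**
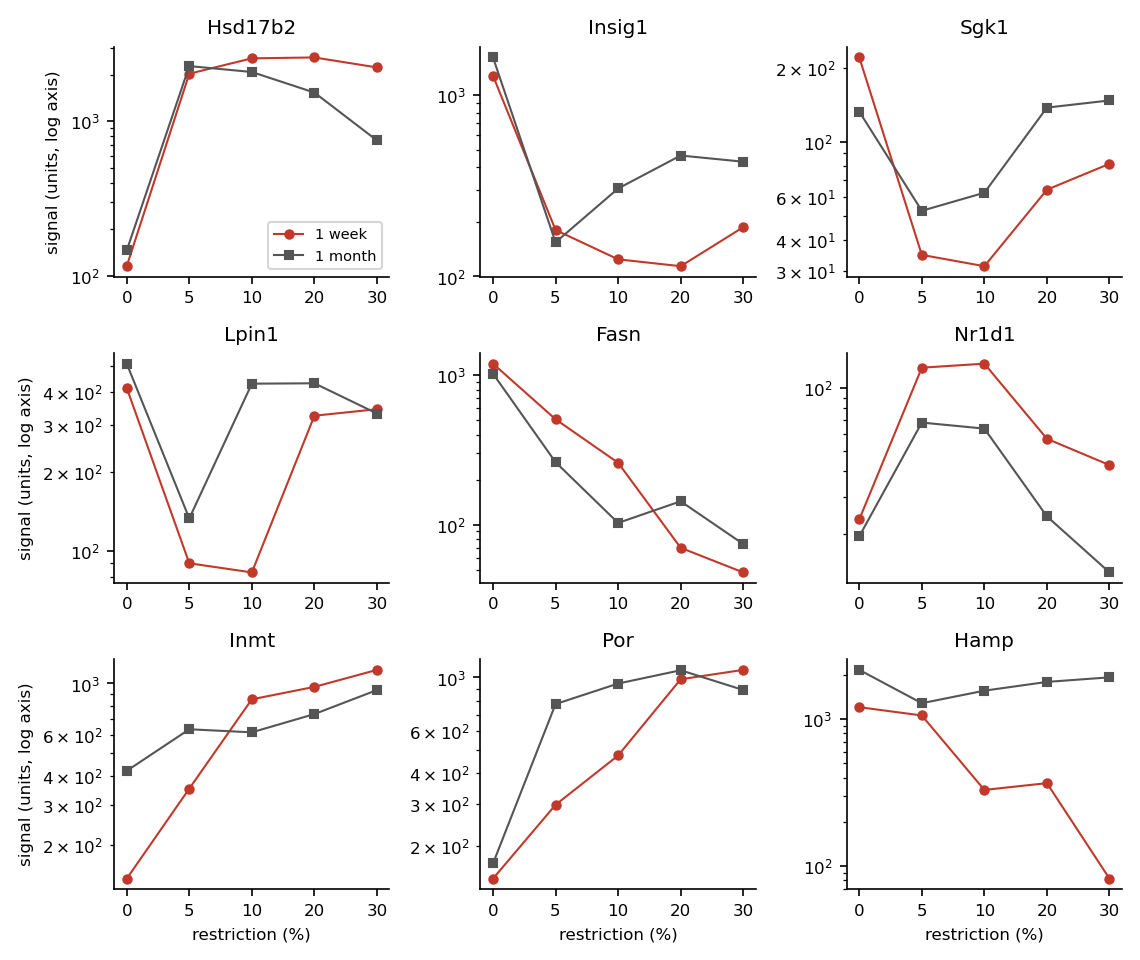
Pool mean signal (log axis) against percent restriction at 1 week (red circles) and 1 month (grey squares) for 9 genes, each point 1 pool of 5 rats, with axes scaled for each gene. At 1 week Hsd17b2 and Insig1 are close at 5% to the level of the stronger restrictions, Lpin1 and Sgk1 are low at 5% and 10% and higher again at 20 and 30% at 1 week, and Hamp at 1 week leaves the control level only from 10% on.

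The 5% pool of the other duration, after 1 month, was compared with its own control, and the 2 comparisons share no pool. Of the 14 probe sets that passed limma at 1 week, 11 passed at 1 month in the same fit, 78.6% of the week's calls and 6.96% of the 158 calls (1.66%) at 1 month. Both tests use the same spread for a probe set, so they are not independent of each other. Hsd17b2 gave 145 units in control and 2281 at 5% after 1 month, Insig1 1610 and 154, Dbp 7.1 and 278, and Nr1d1 19.5 and 68.4, each in the direction of the week. The 3 that did not pass at 1 month were Inmt (0.60, limma adjusted p = 0.0558), Sgk1 (-1.34, limma adjusted p = 0.0724) and Akr1d1. Among brighter probe sets, 15 of the 25 higher at 1 week (60%) were among the 75 higher at 1 month (20% of those), and 12 of the 20 lower (60%) were among the 53 lower (22.6%), where 2.69% of brighter probe sets were past the size rule at 1 month, with 0 in opposite directions. Over all signals the overlap was smaller, at 27 of 176 higher (15.3%) and 28 of 185 lower (15.1%), and 15 and 19 went opposite ways. Across probe sets, which are not independent of each other, the week's and the month's differences correlated at 0.41 among the brighter and -0.08 among the dimmer probe sets.

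In the test of the difference itself, 0 of 9520 probe sets (0%) passed between the 5% effect at 1 week and at 1 month (lowest limma adjusted p = 0.147, 1037 at an unadjusted p under 0.05). Cebpb gave 246 units in control and 92.5 at 5% at 1 week, and 237 and 236 at 1 month. Por gave 146 and 296 units at 1 week and 169 and 776 at 1 month. Gadd45a, a stress-induced growth arrest gene, was at 0.10 at 1 week, with a difference of -2.0 between the durations, one of the 5 lowest by p in its direction.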

How the data were processed

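Liver RNA of 10 pools was measured on 20 arrays, of which 4 hold this comparison. The authors deposited 1 linear intensity for each probe set, computed in MAS5 per the submitters' processing notes. The MAS5 version and scaling target are values not given in the sources used here. Trimmed means of the arrays ran from 38.8 to 99.6 units, so the signals were turned to log2 (the 32 values of 0 replaced by the lowest positive signal on the same array) and quantile normalized over 20 arrays. That brings arrays to 1 distribution and takes out any overall shift. Of 15923 probe sets, 57 controls were left out, and the upper 60% of the rest were tested. Where array values lie under the lowest mean signal tested (11.7 units), a fold is computed with them raised to it before averaging and written as at least, while differences and p-values use them unraised. Gene names follow the platform annotation: 8120 had 1 gene, 245 several and 1155 none listed, and the brightest stands for its gene.

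The 2 arrays of a pool were averaged, and the pool was the replicate. limma 3.58.1 in R 4.3.3 (lmFit, eBayes with trend) was fitted to the 10 pools with 7 coefficients and 3 residual degrees of freedom: control and 5% at each duration as cells of their own, and the 10 to 30% pools as a line for each duration with 1 slope. All p-values are two-sided and adjusted over the 9520 probe sets by Benjamini-Hochberg, with calls under 0.05. No condition has a second pool, so p-values do not measure the spread between rats, and the number of arrays limits the precision. Tested on simulated data for 5% against control, the fit called 10.4%, 50.7% and 89.4% of genes changed by 1, 2 and 3 on the log2 scale and 0.0751% of unchanged ones. The size rule called 47.8%, 97% and 100% of the changed ones and 3.49% of the unchanged ones.

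Named are the 15 largest rises and 15 largest falls by size (ranked with pool means under the limit raised to it), up to 4 members a list past the size rule, a fixed set of 32 genes (26 measured), up to 5 genes a direction by p for each contrast, and members of the clock, lipid, sterol and bile acid lists. The members and the 27 gene lists were chosen with earlier results of these data known. Start regions were taken from RefSeq, build GRCr8. Other normalizations, filters, sizes, fits and left-out arrays and pools were tried.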

Additional observations from a re-analysis of the deposited data

How the results depend on the processing

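No paired analysis was possible because each group is 1 pool and the array number only names a repeat array of it. The size rule's count of 361 was 1849 with no filter on signal, 74 with the upper 40% of probe sets, 177 with low signals raised, 1113 at a log2 difference of at least 0.58 and 125 at 1.5, and it ran from 498 to 790 when arrays were left out. The count of 14 for limma between 5% and control was 81 on the signals as deposited, 0 without a variance trend (950 at an unadjusted p under 0.05), 46 with a slope for each duration, 7 with no slope, 7 with the GAPDH ratio as a covariate and 3 without the 20% pool at 1 week, and 10 to 93 with arrays left out. The test of 5% against the stronger pools, 24 calls in the reported setting, gave 598 as deposited, 94 with median centring, 12 with no filter, 44 with low signals raised, 0 without a trend (1165 unadjusted), 188 with a slope for each duration, 0 with no slope (1097 unadjusted), 1 with the GAPDH ratio, and 16 to 245 with arrays left out. Without the 10, 20 or 30% pool at 1 week it gave 176, 1 and 10, and without those at 1 month 43, 12 and 43. The difference between durations, 0 in the reported setting, gave 433 as deposited (18 higher and 415 lower), 2 with a slope for each duration, 1 with the GAPDH ratio, 2 without the 10% pool at 1 week, and 0 to 1 with arrays left out. The cause of these shifts was not tested. The fits that leave out 1 array of the control or 5% pool were chosen after seeing the data.

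Over 21 alternatives, limma adjusted p for Hsd17b2, Insig1 and the probe set of several genes was under 0.05 in 20, failing without the variance trend. Cdkn1a passed in 18, Inmt and Sgk1 in 17, Aldh1a1, Dbp, Nr1d1 and Per2 in 16, Ech1 in 14, Abcg5 and Nceh1 in 13 and Akr1d1 in 10, all with the same sign in 21. Without the 20% pool at 1 week Hsd17b2, Insig1 and the probe set of several genes were the 3 that passed. With the arrays numbered 1 alone, Dbp, Nr1d1, Per2, Ech1, Abcg5, Nceh1 and Akr1d1 did not pass. Without control array 2, Per2, Abcg5, Nceh1 and Akr1d1 did not pass, and with low signals raised, Dbp, Per2 and Nceh1 did not. Quantile normalization gave a median difference of 0.01 over all probe sets and the signals as deposited -0.17. Across named genes 751 values moved by less than the array error, 277 by more, and 0 that had been called changed sign. Precision is set by signal over background: dim probe sets have the array spread given in the report, and a fold with a side under 11.7 units is a bound.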

Other observations

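Further brighter genes past the size rule, named after their values were seen, have roles in signalling, lipid handling and transcription. Enpp2, which makes lysophosphatidic acid, gave 296.1 and 313.1 units in control and 598.6 and 630.6 at 5% (log2 difference 1.01 ± 0.08). Hacl1, which shortens branched fatty acids, gave 301.6 and 268.7 against 626.1 and 560.6 (1.06 ± 0.07). Rgs16, a brake on G protein signals, gave 90.5 and 95.1 against 197.4 and 216.1 (1.16 ± 0.08), and Klf10, a transcription factor, 37.5 and 43.4 against 87.4 and 87.2 (1.11 ± 0.22). Fabp5, a fatty acid-binding protein, ran lower, at 755.2 and 851 against 339.9 and 431.2 (-1.07 ± 0.14). No array of one pool reached the other pool in these 5 genes, and none passed limma. At 10, 20 and 30% Klf10 gave 74.7, 61.8 and 40.4 units against 87.3 at 5% and 40.3 in control, so its 30% pool lay at the control level.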
